A study of Mus musculus with 6 samples.

Results

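Bidirectional promoter lncRNAs are long noncoding RNAs that start beside a protein-coding gene and run away from it on the opposite strand. Here they were the genes of that GENCODE type with at least 60 counts summed over all 6 libraries, and 105 of the 170 genes of the type in the table met this minimum, among 54232 genes in all. The data are bulk RNA-seq of whole testes from B6D2F1 mice at postnatal day 12 (P12), a stage at which the first germ cells have entered meiosis. The members were thus selected on their summed counts, without use of the groups. The groups are 3 control libraries (genotype *Dis3l2* WT) and 3 with the genotype label *Dis3l2* KO, which the study describes as *Stra8-Cre*; *Dis3l2* F/- testes and in which Cre acts in germ cells from the spermatogonial stage, so that somatic cells keep the floxed allele and lack the other. The study's text calls the libraries of a group biological replicates, while the labels do not say which animals each holds, and p-values measure the spread between these libraries. The comparison asks which transcripts differ in abundance between the KO-labelled and the control testes.

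The targeted gene was examined first. *Dis3l2* stood at 25.8, 23.5 and 23.0 CPM (counts scaled to library size) in the control and at 31.6, 25.4 and 27.5 CPM in the other group, which did not pass edgeR's quasi-likelihood test (log2 fold change 0.22 ± 0.11 SE, adjusted p = 0.136). *Dis3*, which encodes the catalytic ribonuclease of the nuclear RNA exosome, stood at 133, 148 and 137 CPM against 59.1, 64.3 and 68.1 CPM and fell by 1.13 on the log2 scale (SE 0.08, adjusted p = 2.71e-07). The series' own design line names a *Dis3* knockout, whereas the sample labels and the study name *Dis3l2*. The group is therefore called KO-labelled throughout, and these counts alone do not settle which gene was deleted. They pool germ cells with somatic cells, and all exons of a gene. By in situ hybridization the study reports loss of *Dis3l2* RNA from germ cells of P12 cKO testes. By RT-qPCR and immunoblot it reports less *Dis3l2* RNA and protein in whole P12 cKO testes. Those assays were not analysed here.

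As background, most promoters in CpG islands fire in both directions. The upstream product is usually short, is capped, and is degraded in the nucleus by the RNA exosome, to which adaptor complexes such as NEXT and PAXT deliver it, while the Integrator complex and early polyadenylation stop its transcription. A minority of such transcripts are spliced and stable enough to be annotated as lncRNAs. Divergent lncRNAs are common in the testis, where chromatin is widely transcribed.

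The lncRNAs were unevenly spread, on 15 chromosomes. Chromosome 10 held 16 of the 105 lncRNAs, chromosomes 8 and 12 held 14 each, and chromosomes 1, 2, 3, 5, X and Y held 0. The lncRNAs were 337 to 8887 bases of exon in length (median 1690), and 74 of them had at least 2 exon blocks. A protein-coding gene on the opposite strand had its start within 5000 bases in 103 cases, each a different gene, and is called the partner here. In 68 pairs the 2 starts were separated by a gap, with a median distance of 130.5 bases and a largest distance of 896 bases, and in 64 of them the distance was at most 300 bases. In the other 35 pairs the 2 genes overlapped at their 5′ ends as annotated, by up to 2551 bases, and the exons of 30 pairs overlapped on opposite strands. The reads were counted by strand, and how well the strand was kept was not tested. Measured to the nearest annotated transcript start, 95 of the 105 lncRNAs began within 300 bases of a protein-coding start, and 104 kept the same partner. *Gm16196* and *Gm38560* had no partner within the distance by gene starts.

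The intervals between the starts of 6 pairs, picked from the called lncRNAs, are shown as examples. Each interval is all that separates the 2 gene starts in the annotation used for counting. For *B230354K17Rik* and *Cdc5l* the nearest transcript starts in GENCODE M21 give a distance of 94 bases. Part of that interval thus lies within an annotated transcript. Whether these sequences bear on the changes was not tested. They were read from RefSeq's GRCm38.p6 promoter windows on the partner's strand, 5′ to 3′. By gene starts, the lncRNA therefore begins just before the first base on the other strand and the partner just after the last. Capitals mark motifs found by letter, on either strand, and no 2 matches overlap. Those of *Cep83* (chr10:94688577-94688653, 77 bases), *Ncapg2* (chr12:116405211-116405401, 191 bases) and *Cdc5l* (chr17:45433708-45433851, 144 bases) lie between genes that fell together. Those of *Micu2* (chr14:57999263-57999322, 60 bases) and *Zfp148* (chr16:33380728-33380835, 108 bases) lie between a lncRNA that fell and a partner that did not. That of *Socs2* (chr10:95417181-95417374, 194 bases) lies between genes that both rose.
Cep83os and Cep83: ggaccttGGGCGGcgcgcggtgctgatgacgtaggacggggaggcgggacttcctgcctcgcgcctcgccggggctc
D430020J02Rik and Ncapg2: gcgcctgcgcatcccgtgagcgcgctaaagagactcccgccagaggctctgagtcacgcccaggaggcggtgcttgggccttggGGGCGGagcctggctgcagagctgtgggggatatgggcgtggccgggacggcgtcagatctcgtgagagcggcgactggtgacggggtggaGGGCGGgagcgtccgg
B230354K17Rik and Cdc5l: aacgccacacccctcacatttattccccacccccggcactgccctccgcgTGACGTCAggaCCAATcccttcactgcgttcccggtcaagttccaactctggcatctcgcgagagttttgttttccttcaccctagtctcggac
3110083C13Rik and Micu2: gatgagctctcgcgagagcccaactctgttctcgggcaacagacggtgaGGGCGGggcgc
1700007L15Rik and Zfp148: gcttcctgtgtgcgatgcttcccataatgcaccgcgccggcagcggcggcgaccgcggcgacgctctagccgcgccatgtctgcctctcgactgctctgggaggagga
5730420D15Rik and Socs2: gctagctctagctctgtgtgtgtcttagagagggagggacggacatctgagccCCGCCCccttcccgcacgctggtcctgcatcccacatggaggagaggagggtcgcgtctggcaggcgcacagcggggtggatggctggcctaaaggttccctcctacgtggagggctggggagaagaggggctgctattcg

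The GC box (GGGCGG) was present in the *Cep83*, *Micu2*, *Ncapg2* and *Socs2* intervals, with 2 copies in that of *Ncapg2*. The *Cdc5l* interval instead held a cAMP response element (CRE, TGACGTCA) followed by a CCAAT box (CCAAT), and the *Zfp148* interval held none of the 9 motifs searched. The 6 intervals were 57.6% to 75.3% G and C. RefSeq windows of 300 bases, from 250 before to 50 after a start, were matched for 57 of the 105 lncRNAs and 83 of the 103 partners. A GC box was found in 44 of the 57 lncRNA windows (77.2%) and 63 of the 83 partner windows (75.9%), against 35.9% of 27025 genes (the first window listed for each) and 48.0% of those of 16513 protein-coding genes. A TATA box (TATAAA) was found in 0 lncRNA windows and 3 partner windows, against 14.2% of all windows. The ETS site (CCGGAAG) was found in 12 lncRNA windows (21.1%) and 22 partner windows (26.5%), against 9.12% of all. The YY1 motif (AAGATGGC) was found in 6 (10.5%) and 8 (9.64%), against 2.88% of all. Median counts of the CG dinucleotide were 33 in lncRNA windows, 28 in partner windows and 7 over all windows. Over the windows of protein-coding genes alone, the shares were 12.8% (TATA box), 12.3% (ETS site) and 3.29% (YY1 motif). The median count of the CG dinucleotide was 14 there. Shares of lncRNA windows were closer to those of all windows for the CCAAT box (35.1% of lncRNA windows, 37.9% of all), the E-box CACGTG (8.77% and 7.24%), the CRE (1.75% and 1.88%), the NRF1 core GCGCATGC (5.26% and 2.80%) and the STRA8 motif CNCCTCAG (10.5% and 7.97%). In partner windows these 5 shares were, in the same order, 36.1%, 8.43%, 4.82% (4 windows), 3.61% and 7.23%. The windows of a lncRNA and its partner share bases, so the 2 sets are not independent, and a match of letters is a description of the sequence only.

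The lncRNAs were of low abundance. Over all 6 libraries their mean level ran from 0.248 to 37.9 CPM with a median of 1.01 CPM, 52 of them lay under 1 CPM, and 16 reached 5 CPM. The median partner stood at 62.0 CPM. Per kilobase of exon, the level of a lncRNA was at the median 8.04% of that of its partner (quartiles 2.77% and 19.5%), and 7 lncRNAs were under 1% of it. In 4 pairs the lncRNA was above its partner per kilobase. Among these was *Ndufb1-ps*, at 28.3 CPM per kilobase the highest of all, beside 17.6 CPM per kilobase for *Cpsf2*, a subunit of the mRNA 3′ end cleavage machinery. Its symbol names a pseudogene of a mitochondrial complex I subunit, and it has 4 exon blocks. Whether its reads come from a coding transcript or are shared with another gene was not tested, so its level as a lncRNA is uncertain. It stood at 31.8, 30.9 and 28.4 CPM in the control and 36.6, 33.8 and 34.1 CPM in the KO-labelled group, which did not pass the test (log2 fold change 0.20 ± 0.09 SE, adjusted p = 0.130).

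The next levels per kilobase were those of *2310010J17Rik* (12.9), *B230354K17Rik* (7.74), *Gm49041* (6.04) and *Gm49785* (5.44). *Gm49041*, the neighbour of the histone demethylase gene *Kdm7a*, stood at 3.31, 2.14 and 2.86 CPM in the control and 3.60, 3.50 and 4.30 CPM in the KO-labelled group (log2 fold change 0.46 ± 0.23 SE, adjusted p = 0.139), and *Kdm7a* rose (0.44 ± 0.08, adjusted p = 0.000795). *Gm49785*, the neighbour of the zinc-finger gene *Thap7*, stood at 3.25, 1.41 and 1.66 CPM and at 1.73, 1.40 and 1.55 CPM, so its groups overlapped. At the other end, the lncRNAs just inside the count minimum were *4930583K01Rik* with 60 counts and *Gm45885* with 62, and those just outside were *Gm39307* with 59 and *4930470G03Rik* with 58. Of the 62 counts of *Gm45885*, 36 came from control replicate 2.

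**Figure D1:**
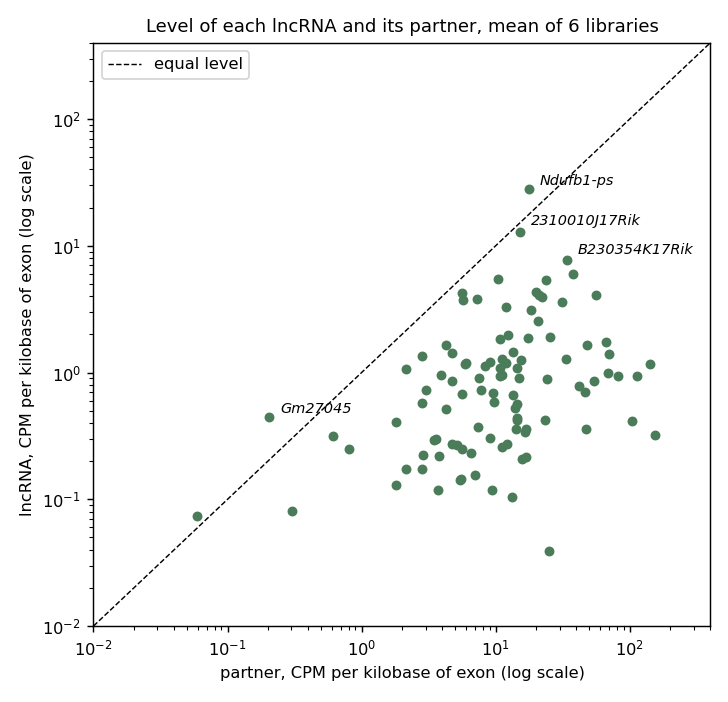
Mean level over the 6 libraries of the 103 paired lncRNAs (vertical axis) and their protein-coding partners (horizontal axis), in CPM per kilobase of exon on log scales, with 1 point for each pair inside the axes and a dashed line of equal level. The pair of 9330151L19Rik with Gm49383, a partner at 0.00418 CPM per kilobase, lies outside the axes. Nearly all points lie below the line, with a median lncRNA level of 8.04% of the partner, and Ndufb1-ps and Gm27045 lie above it.

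Of the 105 lncRNAs, 103 passed the filter on low counts and were tested; *Gm26708* and *Gm45885* did not. In the KO-labelled libraries 22 of the 103 fell and 4 rose at an adjusted p under 0.05 over all 20327 genes tested (edgeR), which is 21.4% and 3.88%. Of these 26, 4 would have missed the minimum of 60 counts had both groups held the level of the lower one (*Gm4129*, *Gm36246*, *9530062K07Rik* and *5730420D15Rik*), so the selection favoured a difference in them. The same holds for 16 of all 105 lncRNAs, most of them with more counts in the control. They were kept, where tested, in the counts and medians of lncRNAs and pairs given here. Over all genes tested, 16.5% were called lower and 16.2% higher. Among the 5148 genes whose summed count lay between the quartiles of the lncRNAs, 100 and 660, 12.2% were called lower and 3.17% higher, and of the 53 lncRNAs in this range 9 were lower and 0 higher. The share called lower was not far above that of all genes, the share called higher was below it but near that of genes of like counts, and none of these differences was tested. The median log2 fold change of the lncRNAs was -0.31, beside -0.02 over all genes and -0.21 over genes of like counts. With at least 10 counts in every library it was -0.22, beside -0.0079 over all genes. Summed over the 105 lncRNAs, the level was 323, 320.5 and 316 CPM in the control and 268, 271 and 275 CPM in the KO-labelled group. In 28 of the tested lncRNAs all KO-labelled libraries lay below all control libraries and in 9 above them (27.2% and 8.74%), beside 23.8% and 21.7% over all genes tested.

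Several properties of the libraries moved with this result. The control libraries held 31560 to 34399 genes with at least 1 count and the KO-labelled libraries 27705 to 28414, at totals of 33325483 to 41945867 and 37533318 to 44956193 counts. Models labelled TEC (to be experimentally checked), many of them unspliced, took 0.127% to 0.176% of the counts in the control and 0.0907% to 0.0981% in the KO-labelled libraries. Spermatocyte markers fell in 19 of 20 cases, with summed levels of 2166 to 2645 CPM against 632 to 822 CPM. Of 18 spermatogonial markers 7 fell and 3 rose (1797 to 1996 against 825 to 1084 CPM), and Sertoli cell markers rose in 17 of 20 cases (9907 to 10558 against 15940.3 to 16841 CPM). Of the tested Leydig cell, macrophage, stromal and endothelial markers, 8 of 11, 7 of 12, 6 of 12 and 3 of 12 rose, and 3 of 12 peritubular myoid markers fell. Red blood cell markers summed to 15.4 to 18.5 CPM against 10.4 to 14.6 CPM, and *Hba-a1*, *Hba-a2* and the Leydig cell gene *Cyp2a5* were under 0.1 CPM. In bulk tissue fewer cells of a type and less RNA per cell cannot be told apart, and the part of these differences in the lncRNA calls was not tested. Scaled to the somatic markers instead, the median log2 fold change moved by -0.50 over all genes and by -0.51 over the lncRNAs. Then 38 lncRNAs were lower and 0 higher, and the share of all genes called under this scaling was not counted. Calls of a rise below therefore hold relative to the bulk of the transcriptome only.

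**Figure D2:**
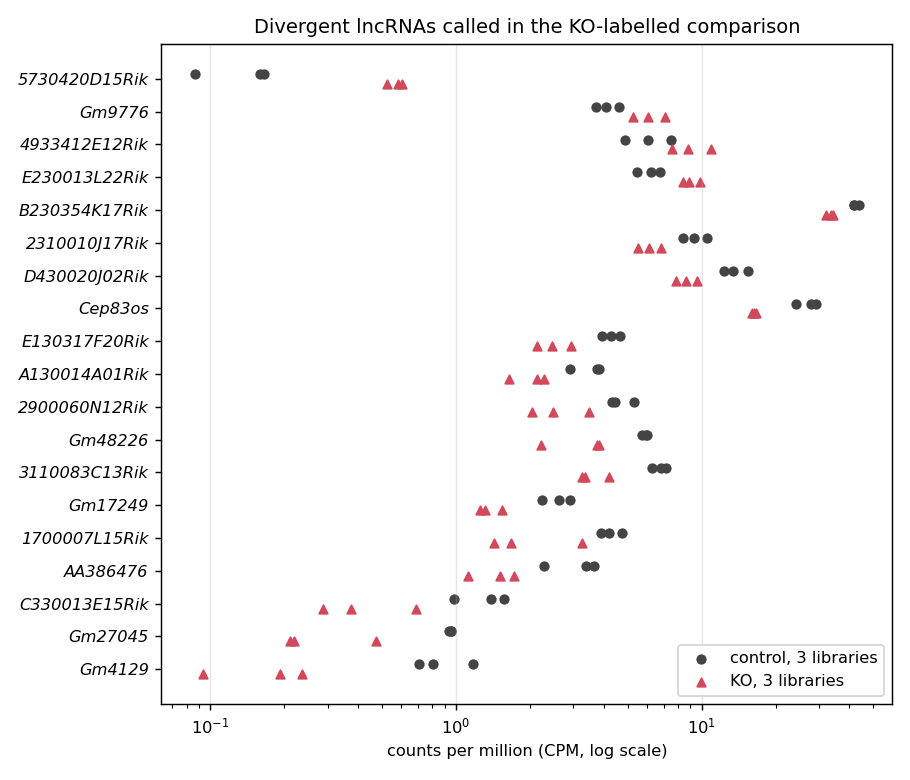
Level of 19 lncRNAs called in the comparison, the 15 called lower with the smallest adjusted p and all 4 called higher, in CPM on a log scale, with a circle for each of 3 control libraries and a triangle for each of 3 KO-labelled libraries, ordered by log2 fold change. The control and KO-labelled values of each lncRNA do not overlap, and the groups lie close in 4933412E12Rik, where 7.51 CPM in the control neighbours 7.61 CPM in the KO-labelled group.

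The 22 lncRNAs that fell split by their partners into 10 whose partner also fell, 5 whose partner rose and 7 whose partner was not called. Among the lncRNAs whose partner also fell, *Cep83os* had the smallest adjusted p of all. It stood at 27.8, 29.2 and 24.3 CPM in the control and 16.6, 16.4 and 16.1 CPM in the KO-labelled group, and fell by 0.73 on the log2 scale (SE 0.11, adjusted p = 0.000157). All KO-labelled libraries lay below all control libraries. Its partner *Cep83*, which encodes a centriole protein needed for docking at the membrane in cilium formation, stood at 116, 120 and 103 CPM against 55.3, 60.2 and 64.0 CPM and fell by 0.92 (SE 0.09, adjusted p = 3.71e-06). A difference between the falls of the 2 genes was not detected: the log2 ratio of *Cep83os* to *Cep83* differed between groups by 0.20 with a 95% interval of -0.07 to 0.46 (limma, adjusted p = 0.277).

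*B230354K17Rik*, the lncRNA with the most counts (9061), fell least of the 22, from 41.8, 43.8 and 41.9 CPM to 34.1, 32.2 and 33.6 CPM (log2 fold change -0.35 ± 0.09 SE, adjusted p = 0.00626). Its partner *Cdc5l*, a core component of the spliceosome, went from 118, 126 and 112 CPM to 78.1, 88.2 and 91.2 CPM (-0.47 ± 0.08, adjusted p = 0.000657), and the difference in ratio was 0.12 with a 95% interval of -0.12 to 0.35. *D430020J02Rik* fell from 15.4, 13.5 and 12.3 CPM to 7.87, 9.55 and 8.62 CPM (-0.66 ± 0.14, adjusted p = 0.00265). Its partner *Ncapg2*, a subunit of the condensin II complex that compacts mitotic and meiotic chromosomes, fell further, from 110, 109 and 104 CPM to 32.3, 30.7 and 48.8 CPM (-1.53 ± 0.14, adjusted p = 2e-06). The ratio of *D430020J02Rik* to *Ncapg2* therefore rose, by 0.90 on the log2 scale (95% interval 0.52 to 1.29, adjusted p = 0.00128 in limma), and in each KO-labelled library it was above every control library.

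In 3 of the other pairs that fell together the ratio to the partner was called lower. *Gm4129* went from 0.806, 1.18 and 0.704 CPM to 0.193, 0.0934 and 0.236 CPM, on 129 counts in all (log2 fold change -2.36 ± 0.55 SE, adjusted p = 0.00438 in edgeR), while the deubiquitinase gene *Usp15* changed by -0.28 (adjusted p = 0.0300), and the ratio fell by 1.97 (95% interval -3.15 to -0.80). *C330013E15Rik* went from 0.979, 1.39 and 1.57 CPM to 0.688, 0.374 and 0.288 CPM (-1.55 ± 0.44, adjusted p = 0.0144), while *Dazap2*, which encodes an adaptor that binds the germ cell protein DAZ, changed by -0.32 (adjusted p = 0.00351), and the ratio fell by 1.23 (95% interval -2.15 to -0.32). Both lncRNAs lay at or near 1 CPM in the control, and their intervals are accordingly wide. *Gm4129* had 109 control counts against 20 KO-labelled ones, and so met the count minimum only through the control. The remaining pairs that fell together were *1700026N04Rik* with the chromatin gene *Dek*, *Gm36246* with the nuclear pore gene *Aaas*, *Gm4890* with *Mmaa* of cobalamin metabolism, *Gm49066* with the focal adhesion kinase gene *Ptk2*, and *Gm47484* with *Zfp410*, with lncRNA log2 fold changes of -1.65, -2.36, -0.67, -1.28 and -0.60. These 5 fell outside the rule for named genes and were named after their values were seen. Of these 5 ratios, that of *1700026N04Rik* fell (-1.42, 95% interval -2.45 to -0.39, adjusted p = 0.0410 in limma), and those of *Gm36246*, *Gm4890*, *Gm49066* and *Gm47484* were not called (adjusted p = 0.150, 0.653, 0.242 and 0.630). In *Gm36246*, of this set, the groups overlapped, with 0.282 CPM in control replicate 2 and 0.314 CPM in KO-labelled replicate 3. *Gm36246* had 98 control counts against 19 KO-labelled ones, and also met the count minimum only through the control.

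In 5 pairs the lncRNA fell while its partner rose. *AA386476* stood at 3.66, 2.28 and 3.38 CPM in the control and 1.51, 1.12 and 1.73 CPM in the KO-labelled group (log2 fold change -1.10 ± 0.28 SE, adjusted p = 0.00733). Its partner *Ing2*, which encodes a reader of methylated histone H3 that is needed in spermatogenesis, stood at 23.9, 29.5 and 26.0 CPM against 36.0, 39.8 and 39.1 CPM (0.53 ± 0.10, adjusted p = 0.00114). Neither gene's groups overlapped, and the ratio fell by 1.61 (95% interval -2.25 to -0.98), with the smallest adjusted p of any lncRNA ratio (0.00064, limma). *1700007L15Rik* stood at 4.20, 4.73 and 3.88 CPM against 1.43, 1.68 and 3.25 CPM (-1.01 ± 0.28, adjusted p = 0.0127), with KO-labelled replicate 3 nearest to the control. Its partner *Zfp148*, a zinc-finger transcription factor gene, stood at 186, 200 and 174 CPM against 228, 237 and 217 CPM (0.29 ± 0.08, adjusted p = 0.0117), and the ratio fell by 1.38 (95% interval -1.98 to -0.78).

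*E130317F20Rik* stood at 4.29, 3.93 and 4.63 CPM in the control and 2.94, 2.45 and 2.15 CPM in the KO-labelled group (log2 fold change -0.77 ± 0.21 SE, adjusted p = 0.0119). Its partner *Ptbp1*, a splicing repressor that binds polypyrimidine tracts, stood at 326, 324 and 359 CPM against 435, 441 and 423 CPM (0.36 ± 0.08, adjusted p = 0.00199), and the ratio fell by 1.14 (95% interval -1.60 to -0.67). *2900060N12Rik* stood at 4.44, 4.31 and 5.29 CPM against 3.49, 2.47 and 2.04 CPM (-0.81 ± 0.23, adjusted p = 0.0140), and the lysophospholipid acyltransferase gene *Mboat2* at 121, 131 and 114 CPM against 158, 166 and 169 CPM (0.43 ± 0.08, adjusted p = 0.000786), so that the ratio fell by 1.26 (95% interval -1.79 to -0.74). In 3 of these pairs, *AA386476*, *E130317F20Rik* and *2900060N12Rik*, the annotated exons overlap those of the partner on the other strand, by 46, 295 and 107 bases. The remaining pair was *9530062K07Rik* with *Washc2*, a subunit of the WASH complex of endosomes, named because it completes the 5; the lncRNA had 57 control counts against 9 KO-labelled ones, and so met the count minimum only through the control (adjusted p = 0.0346), and *Washc2* changed by 0.28 (adjusted p = 0.0166). Relative to the somatic markers the rises of these partners, of 0.28 to 0.53 on the log2 scale, shrink to near 0 or turn, whereas the ratios within pairs do not depend on the scaling.

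In 7 pairs the lncRNA fell while the partner was not called. *3110083C13Rik* stood at 7.14, 6.85 and 6.27 CPM in the control and 3.36, 3.25 and 4.19 CPM in the KO-labelled group (log2 fold change -0.91 ± 0.18 SE, adjusted p = 0.00140). Its partner *Micu2*, which regulates the mitochondrial calcium uniporter, stood at 71.1, 70.7 and 71.1 CPM against 69.1, 84.4 and 70.3 CPM (0.07 ± 0.09, adjusted p = 0.586), with groups that overlapped. The ratio fell by 0.98 (95% interval -1.41 to -0.54, adjusted p = 0.00166 in limma). *2310010J17Rik*, second by level per kilobase, went from 10.5, 9.29 and 8.38 CPM to 6.82, 6.12 and 5.50 CPM (-0.61 ± 0.16, adjusted p = 0.00894), beside 252, 241 and 252 CPM and 231, 241 and 228 CPM for *Picalm*, a clathrin assembly gene. *Gm48226* went from 5.93, 5.72 and 6.02 CPM to 2.23, 3.76 and 3.82 CPM (-0.85 ± 0.22, adjusted p = 0.00765), beside a log2 fold change of -0.13 for *Gphn*, which encodes the scaffold gephyrin.

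*Gm17249* went from 2.91, 2.24 and 2.63 CPM to 1.54, 1.31 and 1.26 CPM (log2 fold change -0.92 ± 0.26 SE, adjusted p = 0.0146 in edgeR), beside 0.11 for *Polr3b*, a core subunit of RNA polymerase III. *A130014A01Rik* went from 3.74, 2.92 and 3.82 CPM to 2.28, 2.15 and 1.65 CPM (-0.78 ± 0.24, adjusted p = 0.0198), beside -0.08 for the palmitoyltransferase gene *Zdhhc7*. *4632427E13Rik* went from 11.001, 11.4 and 13.8 CPM to 7.92, 8.50 and 9.46 CPM (-0.48 ± 0.15, adjusted p = 0.0204), beside 0.24 for the small GTPase gene *Rab30* (adjusted p = 0.0845). In these 6 pairs the ratio fell, by 0.52 to 1.02 on the log2 scale. The exception among the 7 was *Gm27045*, with 0.950, 0.941 and 0.954 CPM against 0.220, 0.210 and 0.471 CPM (-1.65 ± 0.49, adjusted p = 0.0187), whose partner *1700018B08Rik* was itself at 0.183 to 0.403 CPM, so that the interval of the ratio reached from -2.88 to 0.11. Annotated exons overlap those of the partner on the other strand in *Gm48226* (147 bases), *Gm17249* (247) and *Gm27045* (52). Of the pairs that fell together, *Gm4129* (169) and *Gm47484* (225) have such an overlap.

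The 4 lncRNAs that rose fell into 2 with a partner that rose and 2 with a partner that was not called. *E230013L22Rik* stood at 6.77, 6.24 and 5.47 CPM in the control and 8.86, 9.83 and 8.43 CPM in the KO-labelled group (log2 fold change 0.56 ± 0.16 SE, adjusted p = 0.0137). Its partner *Rab20*, a small GTPase gene, went from 22.8, 22.9 and 25.2 CPM to 37.8, 33.1 and 35.4 CPM (0.58 ± 0.10, adjusted p = 0.000428), and the ratio differed by -0.03 (95% interval -0.41 to 0.35). The exons of *E230013L22Rik* and *Rab20* overlap by 356 bases on opposite strands. *5730420D15Rik* had the largest log2 fold change of the 4 on 84 counts in all, 17 of them from control and 67 from KO-labelled testes, so it met the minimum of 60 only through the group where it is high, with 0.0864, 0.165 and 0.159 CPM against 0.523, 0.584 and 0.602 CPM (2.02 ± 0.61, adjusted p = 0.0193). Its partner *Socs2*, a suppressor of cytokine and growth hormone signalling, went from 23.3, 22.2 and 22.9 CPM to 41.9, 55.8 and 40.0 CPM (1.01 ± 0.12, adjusted p = 2.31e-05), and the interval of the difference in ratio was -0.44 to 2.29.

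*Gm9776* stood at 4.61, 4.07 and 3.73 CPM in the control and 7.10, 6.05 and 5.27 CPM in the KO-labelled group (log2 fold change 0.57 ± 0.19 SE, adjusted p = 0.0289), beside 0.02 for *Ap3b1*, a subunit of an adaptor complex for lysosomal sorting. *4933412E12Rik* stood at 6.08, 7.51 and 4.86 CPM against 8.83, 7.61 and 10.9 CPM (0.57 ± 0.19, adjusted p = 0.0339), beside 0.04 for *Rab3ip*, an exchange factor for Rab GTPases. Their ratios to the partner differed by 0.54 (95% interval 0.13 to 0.95, adjusted p = 0.0501) and 0.53 (0.11 to 0.95, adjusted p = 0.0593) in limma and were not called. None of the 4 rises was called in all 6 fits that left out 1 library: they were called in 4 (*E230013L22Rik*), 3 (*4933412E12Rik*), 2 (*5730420D15Rik*) and 2 (*Gm9776*) of the 6. Of the 22 falls, 8 were called in all 6: *Cep83os*, *3110083C13Rik*, *D430020J02Rik*, *Gm4129*, *B230354K17Rik*, *AA386476*, *Gm48226* and *E130317F20Rik*. Among these 8, *Gm4129* met the count minimum only through the control. The other 14 were called in 1 to 5 of the 6, *Gm27045* in 1. In DESeq2, *Gm49066*, *9530062K07Rik*, *Gm4890* and *Gm47484* missed the threshold (adjusted p = 0.0513 to 0.0790). Without control replicate 3 no rise was called, and without KO-labelled replicate 2 there were 13 falls and 1 rise. Fits with 1 library left out hold fewer libraries for every gene. The share of all genes called in them was not set beside these counts.

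The partners were set beside the lncRNAs. Of 102 tested partners 32 rose and 22 fell (31.4% and 21.6%, beside 16.2% and 16.5% over all genes tested), with a median log2 fold change of 0.06. Under the somatic scaling 2 rose and 59 fell. That scaling moved the median of the partners by -0.49 and that of all genes by -0.50. The share of all genes called under it was not counted, so these 2 counts are not a result about the partners. Of all tested protein-coding genes, 20.2% rose and 17.9% fell. Their median level was 20.9 CPM, beside 62.0 CPM for the partners. Coding genes of like counts were not set apart, and the difference was not tested. Of the 32 pairs with a partner that rose, the lncRNA rose in 2 and fell in 5, and of the 21 with both genes tested and a partner that fell, the lncRNA rose in 0 and fell in 10. The median log2 fold change of the lncRNA was -0.17 where the partner rose, -0.73 where it fell, and -0.21 where it was not called. Across the 100 pairs with both genes tested, the log2 fold changes of lncRNA and partner had a Pearson r of 0.39 and a Spearman rho of 0.36, and 63 pairs had the same sign. The points share the same 6 libraries and are not replicates, and over the 50 pairs with a lncRNA of at least 1 CPM the r was 0.24. For comparison, r was 0.38 over 761 pairs of other lncRNA types with an opposite-strand coding start within 5000 bases, overlapping genes included. It was 0.22 over 1420 rows of such pairs of 2 coding genes. In 69 of the 100 pairs the fold change of the lncRNA lay below that of its partner.

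**Figure D3:**
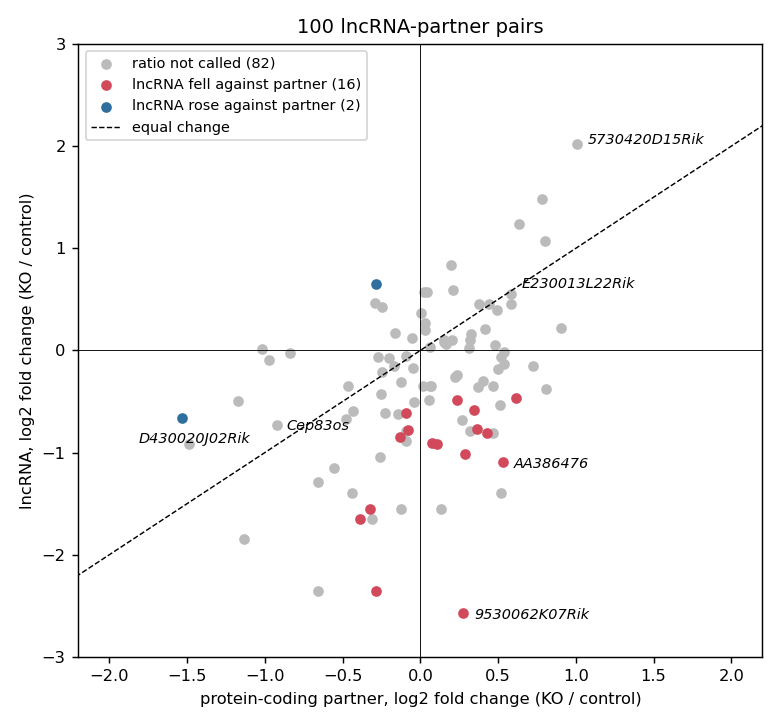
Log2 fold change, KO-labelled over control, of the lncRNA (vertical axis) and of its protein-coding partner (horizontal axis) in 100 pairs, with 1 point for each pair, coloured by the call on the ratio, and a dashed line of equal change. Pairs whose lncRNA fell against the partner (16) lie below the line, most of them at partner changes near 0 or above, and the 2 that rose against the partner, D430020J02Rik among them, lie above it.

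The ratio of each lncRNA to its partner was then tested within libraries, as the log2 difference of the 2 genes. The test covered 2531 pairs of any tested gene with a tested opposite-strand coding gene whose start lies within 5000 bases. Genes that overlap at their 5′ ends are among them. The ratio fell in 16 and rose in 2 of the 100 lncRNA pairs, while 16.0% of all pairs were called lower and 9.72% higher, pairs of 2 coding genes included, in which the order of the genes is arbitrary. The share of lncRNA ratios called lower thus equals that of all pairs, and the share called higher (2%) is below it. The falls numbered 8, 10 and 9 without control replicates 1, 2 and 3, and 8 with the partner count as an offset in edgeR. The median difference was -0.33 over the lncRNA pairs and -0.15 over all pairs. Of the 2 ratios that rose, that of *D430020J02Rik* is given above. Of the 16 ratios that fell, 14 belong to lncRNAs called lower, and the others, named because they complete the count, are *BC048644* with the amino acid transporter gene *Slc7a5* and *4930547M16Rik* with *Mfsd4b4*, whose partners rose.

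**Figure D4:**
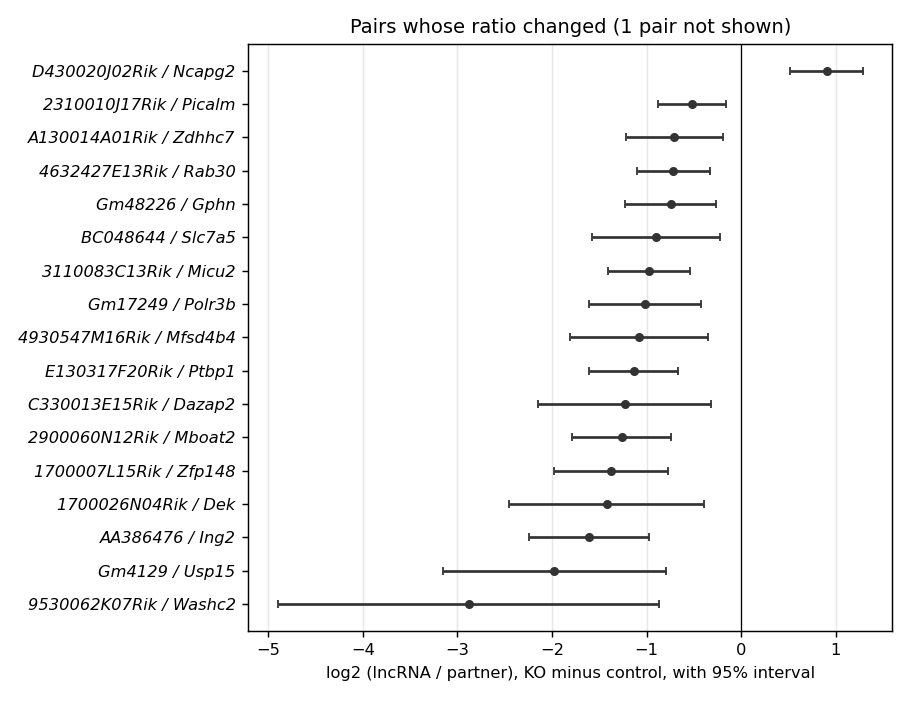
Difference between KO-labelled and control libraries in the log2 ratio of lncRNA to partner, for 17 of the 18 pairs called by limma, with points for the estimate and bars for its 95% interval (3 libraries in each group). The ratio of D430020J02Rik, which rose, sits at 0.90, and the 16 that fell run from -0.52 for 2310010J17Rik to -2.88 for 9530062K07Rik, whose interval is the widest.

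Other types of noncoding gene were also called lower more often than higher. Of the tested genes, 12.1% of 741 lincRNAs, 13.4% of 620 antisense RNAs and 12.7% of 338 processed transcripts were called lower, and 4.59%, 4.03% and 3.55% higher. Of 1024 TEC models 17.3% were called lower and 0.586% higher. Protein-coding genes, 15583 of them, split into 17.9% lower and 20.2% higher. Among the 295 genes of the first 3 types that lie head to head with a coding gene at a distance of at most 1000 bases, 54 fell (18.3%) and 6 rose, and their ratio to the partner fell in 52 (17.6%) and rose in 2. Among the 66 tested bidirectional promoter lncRNAs in the same arrangement, 14 fell (21.2%) and 2 rose, and the ratio fell in 10 of 65 (15.4%) and rose in 1. Their median log2 fold changes were -0.53 and -0.35. The differences between the types were not tested.

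**Figure D5:**
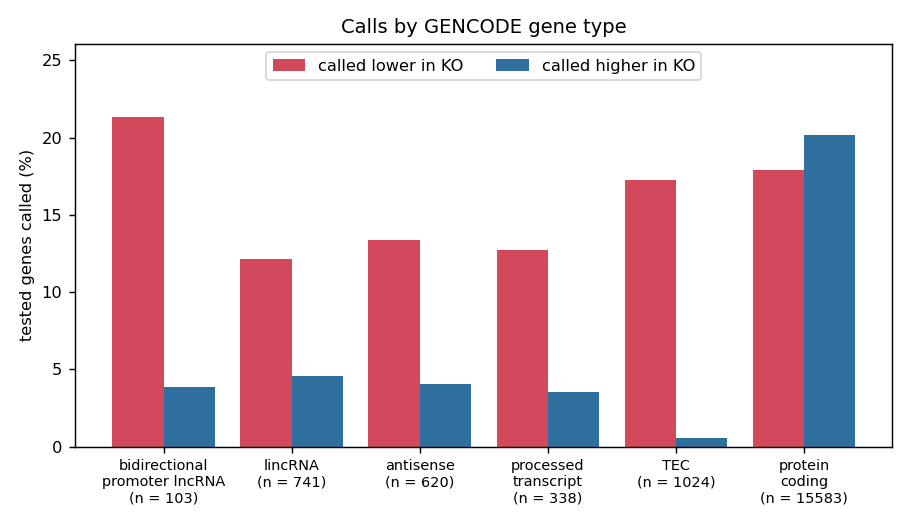
Percentage of tested genes of each GENCODE type called lower or higher in the KO-labelled libraries (edgeR, adjusted p under 0.05), with the number tested under each type. The noncoding types have more genes called lower than higher, 21.4% and 3.88% for the bidirectional promoter lncRNAs, whereas protein-coding genes were called 17.9% lower and 20.2% higher.

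The machinery known to act on divergent transcripts was read from 3 lists, beside 16.5% of all genes called lower and 16.2% higher. Of 15 tested genes listed as exosome subunits, cofactors and related ribonucleases, 5 fell and 0 rose, with a median log2 fold change of -0.11, beside -0.02 over all genes. Apart from *Dis3*, the largest of these falls by adjusted p was that of *Exosc8*, a subunit of the exosome ring, from 65.9, 73.4 and 63.7 CPM to 34.8, 37.6 and 42.0 CPM (log2 fold change -0.83 ± 0.10 SE, adjusted p = 1.83e-05 in edgeR). The list's *Mpp6* also fell, and it is counted among the 5 and in the median. In this annotation that symbol is a membrane guanylate kinase that shares an old name with the exosome cofactor. The cofactor's own symbol, *Mphosph6*, was not called (0.15 ± 0.11). *Exosc6* was listed at 0 counts in every library. Of 14 nuclear adaptors of promoter transcript decay, 5 fell and 0 rose (median -0.13), led by *Ncbp3*, a cap-binding protein gene (-0.36 ± 0.08, adjusted p = 0.00445), and *Mtrex*, the helicase of NEXT and PAXT (-0.33 ± 0.08, adjusted p = 0.00480). Of 24 genes of Integrator and early termination, 10 fell and 1 rose (median -0.19). The smallest adjusted p among the falls were those of the Integrator subunits *Ints13* (-0.69 ± 0.09, adjusted p = 4.92e-05) and *Ints8* (-0.61 ± 0.08, adjusted p = 7.01e-05), and *Wdr82*, which serves in early termination, rose (0.47 ± 0.08, adjusted p = 0.000659).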

How the data were processed

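Total RNA of P12 testes was made into stranded libraries by the authors (random and oligo(dT) primers, depletion of abundant RNA) and sequenced as single-end reads. Per the labels and the study's methods, reads were trimmed with cutadapt and aligned with HISAT2 to GRCm38.p5 (mm10). The deposited table holds raw counts per gene, made by the authors with featureCounts 1.6.4 on GENCODE M18, with 0 unused columns of library values. Symbols and gene types came from GENCODE M21, which held 54079 of the 54232 identifiers, and 98 of the 105 lncRNAs have the same ends in both releases. No symbol of the type began with Snhg, a group that the rule leaves out, and 65 genes of the type were under the minimum of 60 counts, 4 of them with 0 counts.

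The gene test was edgeR's quasi-likelihood test (version 4.0.16, in R 4.3.3) after TMM scaling and filterByExpr, with Benjamini-Hochberg adjustment over all genes tested and a threshold of 0.05. CPM were scaled by TMM, and a standard error is the log2 fold change divided by the square root of F. Ratios of lncRNA to partner were taken as log2 CPM with a prior count of 1. They were tested with limma 3.58.1 over all opposite-strand pairs within 5000 bases, with the lower mean level as the trend. The fold change of a gene with few counts depends on the prior. Both tests were checked on simulated data. DESeq2 1.42.0 was an alternative. Promoter windows came from RefSeq (GRCm38.p6) and were matched by symbol and start. Python 3.11.15, pandas 2.3.3 and matplotlib 3.10.9 handled tables and plots.

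Genes were named by rule: up to 15 lncRNAs called in each direction by smallest adjusted p, the 5 of highest level per kilobase, up to 10 with a called ratio, their partners, the 2 lncRNAs on each side of the count minimum, *Dis3l2* and *Dis3*, and up to 2 called genes in each direction of each pathway list. The count minimum that defines the lncRNAs did not use the comparison of groups, whereas naming did, and the lncRNAs and the lists were chosen with earlier results of these data known. No library was a copy of another (chi-square over degrees of freedom at least 7.62 for any 2 replicates). Deviations of libraries with the same replicate number were unrelated (r over genes -0.0014, -0.0126 and 0.0139), and no pairing was therefore assumed. The values of 1 pair with a called ratio are not reported here.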

Additional observations from a re-analysis of the deposited data

How the results depend on the processing

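Calls of lncRNAs higher and lower were 4 and 18 with DESeq2, 4 and 22 with RLE or upper-quartile factors, 4 and 22 without a filter, and 3 and 18 of 66 lncRNAs with at least 10 counts in every library. All 18 DESeq2 falls were among the 22. Scaled to somatic markers, calls were 0 and 38 for lncRNAs and 2 and 59 for partners, while the median of all genes moved by -0.50. Leaving out 1 library gave 0 to 4 lncRNAs higher and 13 to 23 lower, 28 to 35 partners higher and 18 to 22 lower, and 1 to 2 ratios higher and 8 to 12 lower. The shares of all genes and all pairs called in these fits were not set beside these counts. The fewest falls against the partner came without control replicate 1 (8), control replicate 3 (9) and control replicate 2 (10), and the rises of lncRNAs dropped to 2 without control replicate 1, to 0 without control replicate 3 and to 1 without KO-labelled replicate 2. With the partner count as an offset in edgeR, 8 ratios fell and 2 rose, and the cause was not tested. With a replicate block, whose numbers do not pair the libraries, 5 ratios rose and 19 fell, and 3 lncRNAs rose and 22 fell. A prior count of 5 gave 2 and 17 ratios, partners within 1000 bases 3 and 16, at least 10 counts 3 and 14, and transcript starts 2 and 16, with 32 and 23 partners. No called log2 fold change or ratio of a lncRNA named here changed direction under these settings. Of those not called, the fold changes of *Ndufb1-ps* and *Gm49041* turned to -0.30 and -0.041 under the somatic scaling. With 1 library left out, the ratio of *E230013L22Rik* ranged from -0.16 to 0.066, that of *Gm49041* from -0.20 to 0.16 and that of *Gm49785* from -0.33 to 0.31, and the fold change of *Gm49785* from -0.61 to 0.021. Without a filter on low counts, or in DESeq2, the median of all genes fell by 0.30 and 0.31, because genes with few counts entered.

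Depth limits the low lncRNAs: 52 of 105 lie under 1 CPM, and differences within their intervals were not detectable.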
